A study of Mus musculus with 13 samples.

Results

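Mouse splenic B cells lacking Regnase-1 were compared with control B cells 4 h after stimulation through the B cell receptor (BCR). The comparison used 6 of the 13 RNA-seq libraries of the study, 3 deficient and 3 control. Of 23337 gene symbols in the count tables, 13574 passed a filter on low counts, and all of these were tested as deficient minus control. Deficient cells were Regnase-1f/f hCD20TamCre: both alleles of Zc3h12a, the gene for Regnase-1, carried loxP sites, and a tamoxifen-activated Cre was expressed in B cells from the human CD20 promoter. Control cells were Regnase-1+/+ hCD20TamCre, so both groups carried the Cre. Cells were taken from spleen by removing CD43-bearing cells with beads, and stimulated cells received anti-IgM F(ab')2 for 4 h. The unstimulated libraries, 4 control and 3 deficient, are labelled naive and untreated and serve below for the comparison between states. The labels give no age, strain, tamoxifen schedule or culture time for the unstimulated cells. They number the libraries but do not say that each came from a separate animal, and if some share an animal, the p-values reflect the scatter of these samples alone.

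Regnase-1 is an endoribonuclease that binds short stem-loops in the 3′ untranslated regions (3′ UTRs) of mRNAs, typically a stem closed by a loop of pyrimidine, purine and pyrimidine, and cleaves mRNAs that are being translated. It is best known for limiting inflammatory transcripts in macrophages and activated T cells, and it also acts on its own mRNA. BCR engagement activates tyrosine kinases, calcium flux, the RAS to ERK cascade and the NF-kB pathway, which together switch on immediate early genes and NF-kB targets. The comparison asks which transcripts differ between the genotypes once that program has been running for 4 h.

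The stimulated libraries held 22638210 to 33244755 counts, and 3 counts stood for 0.0902 to 0.132 CPM (counts scaled to each library's total) in them. Markers of B cells summed to 4082 to 4311 CPM in control versus 4224 to 4597 CPM in deficient libraries, and Cd3e, a T cell marker, stayed under 3 CPM. On the first principal component of the 6 libraries, with 35.5% of the variance, deficient library 1 lay apart at 47.55 and the genotypes were not separated. That library had the highest sum of erythroid markers, 1239 CPM, where the others ranged from 140 to 509 CPM, with Hba-a1 and Hba-a2 at 0 in all 6. Deficient library 1 and control library 3 had the highest neutrophil sums, 312 and 175 CPM against 31.6 to 74.5 CPM in the other libraries. By Xist and Y-linked transcripts, control library 1 and deficient libraries 2 and 3 came from male cells and the others from female cells, so sex was unevenly divided between the genotypes. Of 14 marker lists, 4 had sums that did not overlap, as did 17.8% of all single genes tested. Marginal zone B cell (1300 to 1466 CPM in control, 1532 to 1620 CPM in deficient cells) and stromal markers (33.1 to 46.8 and 54.5 to 59.5 CPM) were higher, and plasma cell (2920 to 3288 and 2066 to 2742 CPM) and B-1 cell markers (232 to 242 and 201 to 228 CPM) were lower in deficient cells. Most of the B-1 sum was Ptpn22, at 157.5 to 177.7 CPM in control and 121.7 to 143.9 CPM in deficient libraries. Of the 6 B-1 markers 4 had a difference below 0 and 2 above, and 0 were called. Most of the stromal sum was Pecam1, at 51.6 to 57.1 CPM in deficient libraries, a gene called higher that B cells also express, and 4 of the 6 stromal markers tested had a difference below 0, with a list median of -0.93. In these bulk samples fewer cells of a type and less RNA per cell cannot be told apart.

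Zc3h12a itself (chromosome 4, 125118423 to 125127840, minus strand, mm10) stood at 157, 156 and 147 CPM in control versus 92.6, 103 and 113 CPM in deficient libraries. The groups did not overlap, and the transcript fell by 0.58 ± 0.08 (SE) on the log2 scale (adjusted p = 0.000784, edgeR's quasi-likelihood test). The labels do not say which exons the loxP sites flank, and reads from exons outside the deleted part still count, so the level is no measure of the protein lost. The 3′ UTR of Zc3h12a, 856 bases in GENCODE vM21, holds 4 stem-loops of the kind Regnase-1 binds, searched as at least 5 Watson-Crick or G-U pairs closing a 3-base loop of pyrimidine, purine and pyrimidine. The 3 with the longest stems are shown because Regnase-1 is known to act on its own mRNA, as RNA, 5′ to 3′, with the loop in capitals.

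Zc3h12a chr4:125119069-125119083 minus strand: gauacaCAUuguauc

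Zc3h12a chr4:125118886-125118902 minus strand: uaggcacCAUgugccug

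Zc3h12a chr4:125118662-125118678 minus strand: auuuaaaUAUuuuaaau

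Across all genes, 273 of 13574 (2.01%) were called at an adjusted p under 0.05, 102 higher (0.751%) and 171 lower (1.26%) in deficient cells, with edgeR's quasi-likelihood test after Benjamini-Hochberg correction. Most changes were modest: the median size among called genes was 0.47 on the log2 scale, and 15 genes rose and 12 fell by more than 2-fold. The median over all genes tested was 0.0028. The shares of 0.751% higher and 1.26% lower are the background for the counts of called list members below. The lists were chosen with earlier results of these data known, so those counts do not test the lists. The groups did not overlap for any of the 273 genes, which were picked by a test on the same values, so this adds no separate support. They did not overlap for 2149 genes not called either. The share over all genes tested was 17.8%, 7.80% with the deficient libraries above. Calls were more frequent among abundant transcripts, at 3.84% of genes with a mean log2 CPM of 5 or more, 1.15% between 2 and 5 and 0.211% under 2. Against a minimum fold of 1.5, 12 genes passed: Nfkbiz, Batf, Bcl2, Slamf1, Fcgr2b, Tnfrsf13b, Mapk3, Krt222 and Slit3 higher, and Icam1, Trib1 and Zbtb46 lower. Single libraries moved the count of 273 by more than 1.5 times: leaving out control library 1 gave 129 calls, leaving out control library 3 gave 180 and leaving out deficient library 2 gave 177. It was 170 without both control library 3 and deficient library 1, and 298 without both libraries numbered deficient 1.

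**Figure D1:**
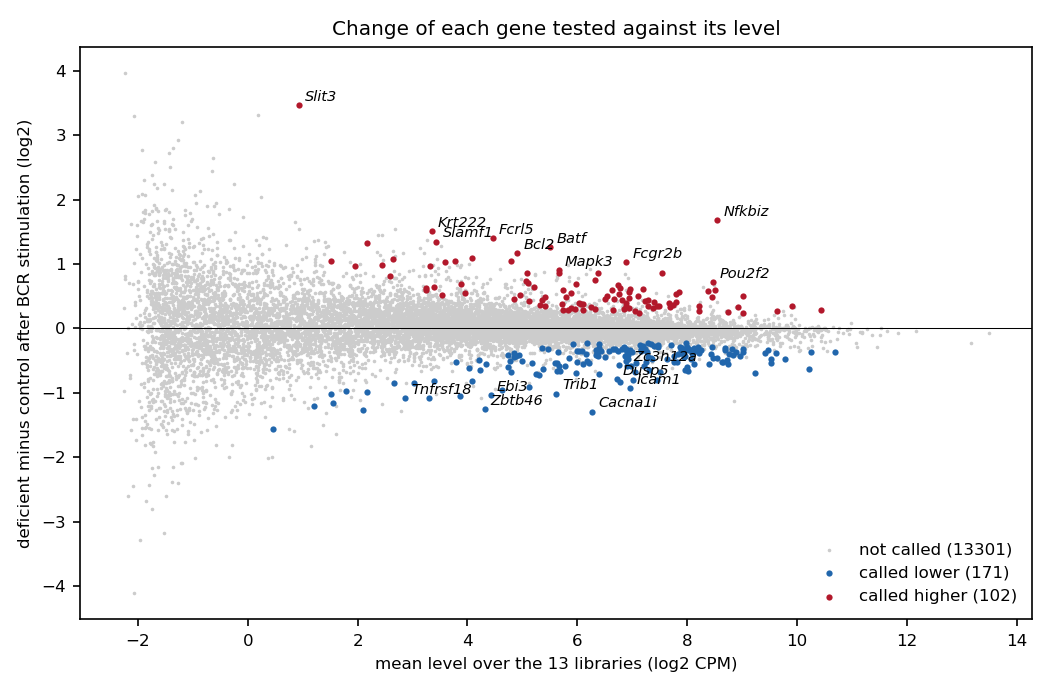
Each point is 1 of 13574 genes tested, with its mean level over the 13 libraries on the horizontal axis (log2 CPM) and the log2 difference of deficient minus control after stimulation on the vertical axis. The 102 genes called higher (red) and 171 called lower (blue) lie mostly to the right, and Nfkbiz stands apart among abundant genes at 1.69.

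Nfkbiz, which encodes the nuclear IkB protein IkB-zeta, a cofactor of NF-kB at a subset of inflammatory promoters, had the largest log2 difference of all genes tested with a mean log2 CPM of 2 or more. It stood at 296, 294 and 302 CPM in control versus 887, 1032 and 954 CPM in deficient libraries. The lowest deficient library was far above every control library, and the log2 difference was 1.69 ± 0.07 (edgeR's quasi-likelihood test, adjusted p = 1.84e-09). Unstimulated deficient cells already had 249 CPM on average, against 87.4 CPM in unstimulated and 297 CPM in stimulated control cells. The 3′ UTR of Nfkbiz, 1355 bases, holds 4 stem-loops by the same search, 3 of them with a UAU loop. The 2 with the longest stems have their loops 108 and 136 bases into the 3′ UTR and are shown because Nfkbiz is a reported Regnase-1 target. The loop is again in capitals.

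Nfkbiz chr16:55812613-55812629 minus strand: uuguuucUAUgaaacaa

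Nfkbiz chr16:55812581-55812605 minus strand: uaguucacuauUAUauaguggauua

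Of 21 tested transcripts reported as Regnase-1 targets, Nfkbiz was the 1 that rose, Zc3h12a the 1 that fell and 19 were not called, with a median log2 difference of -0.08. Zc3h12a is also the gene that was targeted, so its fall does not show how a target responds. DESeq2 called 2 of the 21 higher, as did edgeR when sex or the erythroid level was added to the fit. Among 16 genes for NF-kB subunits and IkB proteins, Nfkbiz rose and Nfkbie, the gene for the inhibitor IkB-epsilon, fell by 0.35 from 516, 574 and 517 CPM to 423, 422 and 416 CPM (adjusted p = 0.0351); the median was -0.09. The call of Nfkbie ended when any 1 of the 6 stimulated libraries was left out (adjusted p up to 0.153, without control library 2).

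Feedback regulators of NF-kB moved in both directions. Of 15 tested, 3 fell, 2 rose and 10 were not called, with a median of -0.11 (all genes tested: 1.26% lower, 0.751% higher). Tnfaip3, which encodes the ubiquitin-editing enzyme A20 that shuts off NF-kB signalling, stood at 899, 918 and 862 CPM in control versus 534, 664 and 628 CPM in deficient libraries, a fall of 0.55 ± 0.11 (adjusted p = 0.0146). Traf1, an adaptor of TNF receptors, fell by 0.37 and the deubiquitinase gene Otud7b by 0.32. In the other direction Tnfaip8, named for its induction by TNF, rose from 48.2, 48.2 and 51.2 CPM to 80.6, 73.0 and 85.2 CPM, a difference of 0.69 ± 0.06 (adjusted p = 2.85e-05). Tnip1, whose product binds A20, rose by 0.32 ± 0.06 (adjusted p = 0.00658). The calls of 4 of these genes did not hold in every fit that left out 1 library: Tnip1 was lost without control library 1 (adjusted p = 0.0525), Tnfaip3 without control library 1 or 2 or deficient library 1 (up to 0.0912), Traf1 without any 1 control library or deficient library 3 (up to 0.0863), and Otud7b without any 1 library other than deficient library 1 (up to 0.12).

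Upstream of NF-kB and ERK, genes of the BCR complex and its proximal kinases and adaptors gave no calls. edgeR's quasi-likelihood test called 0 of 25 tested genes, with a median of 0.03. Of these genes 6 had an unadjusted p under 0.05, 2 above and 4 below 0, while DESeq2 called 2 lower and limma on the deposited log2 values called 0. Among 25 regulators of small GTPases, Rapgef6, an exchange factor for RAP, fell by 0.49 ± 0.07, from 651, 644 and 641 CPM to 446, 474 and 454 CPM (adjusted p = 0.000784), and the other 24 were not called.

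In the ERK pathway the kinase gene Mapk3, encoding ERK1, rose. Control libraries held 24.0, 22.7 and 22.9 CPM and deficient libraries 44.0, 42.5 and 44.0 CPM. Replicates differed by under 2 CPM within each group, and the groups were clearly apart (log2 difference 0.91 ± 0.07, edgeR's quasi-likelihood test, adjusted p = 3.61e-06). Of 25 genes for ERK kinases, dual-specificity phosphatases and Tribbles or Sprouty regulators, 2 rose, 3 fell and 20 were not called; the median was -0.14. Dusp5, a nuclear phosphatase for ERK that is itself induced by ERK, fell from 140, 144 and 155 CPM to 85.9, 81.0 and 87.6 CPM (-0.79 ± 0.11, adjusted p = 0.00184). Dusp1 fell by 0.59 ± 0.09 (adjusted p = 0.0024). Trib1, a pseudokinase gene of the Tribbles family, stood at 84.8, 97.4 and 102 CPM in control versus 49.3, 42.9 and 49.1 CPM in deficient libraries (-1.01 ± 0.09, adjusted p = 2.17e-05). Its paralog Trib2 rose by 0.39 ± 0.09 (adjusted p = 0.0329), a call that ended without control library 1 or 3 or deficient library 2 or 3 (adjusted p up to 0.159).

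Immediate early and AP-1 genes, which respond to these cascades within minutes to hours, were mostly at lower levels. Of 23 EGR, NR4A and other immediate early genes 20 had a log2 difference below 0, with a median of -0.27, but 1 passed the test: Plk3, a stress-responsive polo-like kinase gene, fell by 0.54 ± 0.08 (adjusted p = 0.00256). Summed over the list, control libraries held 7571 to 7745 CPM and deficient libraries 5786, 6939 and 7008 CPM, with deficient library 1 lowest. Of 24 AP-1, BATF and IRF genes, 4 fell and 1 rose (all genes tested: 1.26% lower, 0.751% higher). Fos stood at 27.9, 24.7 and 24.2 CPM in control versus 15.4, 16.5 and 20.4 CPM in deficient libraries, a fall of 0.55 ± 0.11 (adjusted p = 0.0159). Junb fell by 0.41 ± 0.07 (adjusted p = 0.00519), Irf5, an inflammatory IRF, by 0.43 ± 0.06 (adjusted p = 0.000734), and Bach1, a heme-sensing repressor, by 0.35 ± 0.08 (adjusted p = 0.0251). The call of Fos ended without control library 1 or deficient library 1 or 2 (adjusted p up to 0.0925), and that of Bach1 without any 1 control library or deficient library 1 (up to 0.102). In unstimulated cells Fos and Junb already had log2 differences of -0.76 and -0.52 (edgeR's quasi-likelihood test, adjusted p = 0.00465 and 0.00193). The median of the 23 immediate early genes was -0.18 in that state.

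Batf, an AP-1 factor that lacks a transactivation domain, pairs with JUN proteins and IRF4 and is needed for class switching, was the member that rose. It was at 46.4, 54.6 and 49.7 CPM in control versus 113, 125 and 125 CPM in deficient libraries. The deficient libraries were all more than 2-fold above the highest control library, and the log2 difference was 1.27 ± 0.08 (adjusted p = 6.63e-07, edgeR's quasi-likelihood test). Before stimulation its mean level was 9.24 CPM in control and 13.4 CPM in deficient libraries, a log2 difference of 0.53. Its partner gene Irf4 was at 3059, 3189 and 2823 CPM in control versus 1960, 2467 and 2657 CPM in deficient libraries, with no overlap, and did not pass the test (-0.36 ± 0.14, adjusted p = 0.291). Irf4 makes up most of the summed plasma cell marker level given above.

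**Figure D2:**
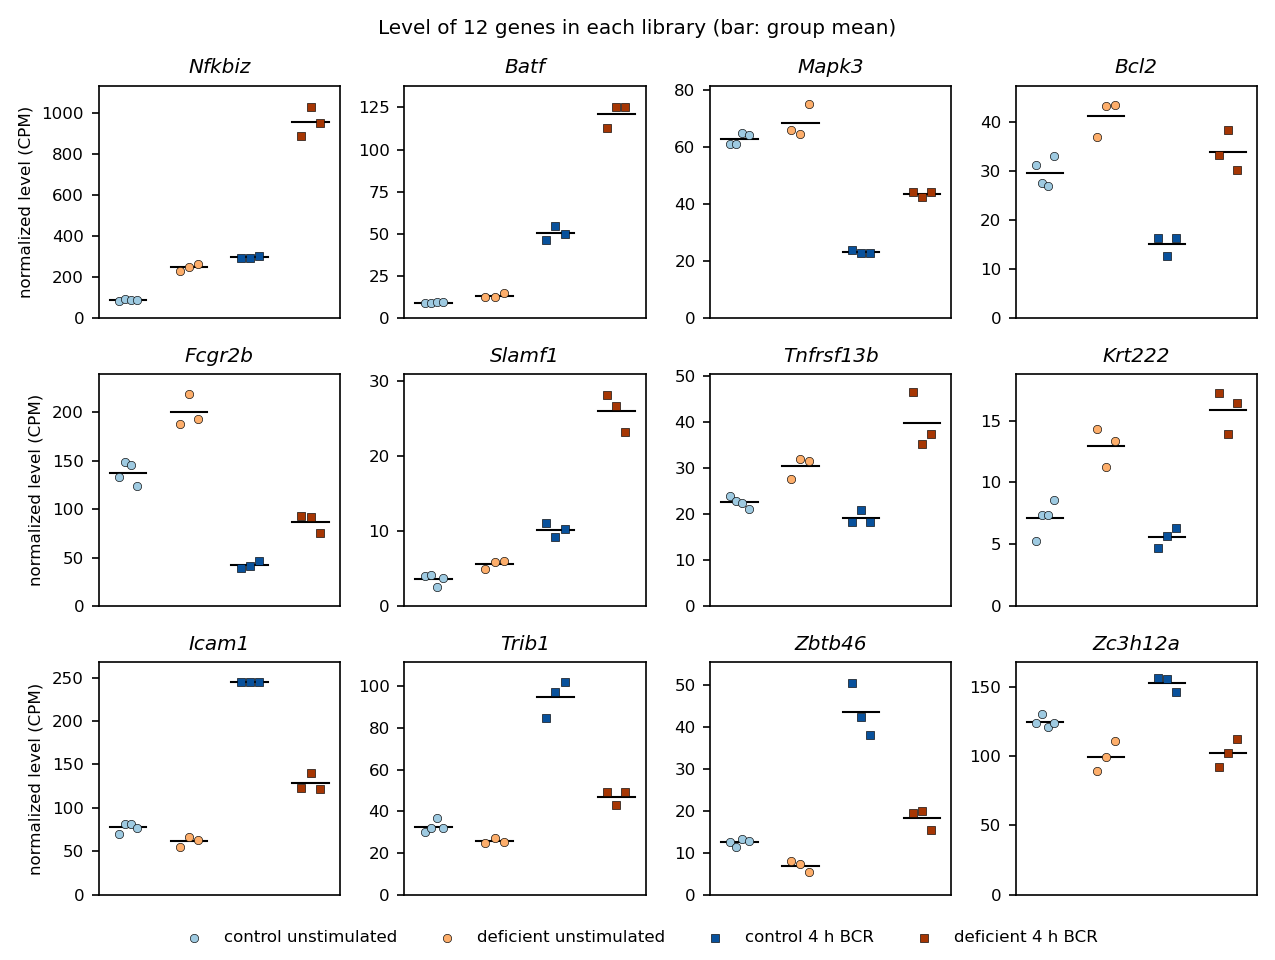
Normalized level (CPM) of 12 genes in every library, by genotype and state, with a bar at each group mean. The genes are those past a minimum fold of 1.5 with a mean log2 CPM of 2 or more, and Zc3h12a: after stimulation Nfkbiz sat at 887 to 1032 CPM in deficient and 294 to 302 CPM in control libraries, and in none of the 12 panels did the stimulated groups overlap.

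Of 32 transcription factors of B cell identity and fate, 4 rose, 2 fell and 26 were not called (all genes tested: 0.751% higher, 1.26% lower). Pou2f2, which encodes the octamer-binding factor OCT2, stood at 184, 179 and 172 CPM in control versus 307, 297 and 276 CPM in deficient libraries (0.72 ± 0.07, adjusted p = 4.48e-05). Pou2af1, which encodes its coactivator OCA-B, moved the other way, from 477, 405 and 413 CPM to 318, 317 and 299 CPM (-0.47 ± 0.08, adjusted p = 0.00336). Zeb2, a zinc finger repressor linked to atypical memory B cells, rose by 0.62 ± 0.10 (adjusted p = 0.00316), Ikzf1, the gene for Ikaros, by 0.49 ± 0.07 (adjusted p = 0.000784), and Spib, an ETS factor, by 0.27 ± 0.06 (adjusted p = 0.035). Zbtb46, best known as a transcription factor of classical dendritic cells, fell from 50.6, 42.4 and 38.1 CPM to 19.6, 20.03 and 15.4 CPM (-1.25 ± 0.15, adjusted p = 0.000242). The whole dendritic list, of which Zbtb46 is a member, summed to 187, 147 and 191 CPM in control versus 184, 150 and 116 CPM in deficient libraries, which overlapped. Among 6 E protein and ID genes Tcf4, for the E protein E2-2, rose by 0.42 ± 0.08 (adjusted p = 0.00876) and Id3, an inhibitor of E proteins induced by antigen receptors, fell by 0.67 ± 0.11 (adjusted p = 0.00411). The call of Spib ended without any 1 library other than deficient library 1 (adjusted p up to 0.159) and that of Tcf4 without control library 1 (adjusted p = 0.062).

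Genes of the mitochondrial death pathway gave 1 rise on each side. Bcl2, the pro-survival founder of its family, was at 16.3, 12.7 and 16.4 CPM in control versus 33.3, 38.4 and 30.1 CPM in deficient libraries, with no overlap (1.17 ± 0.12, edgeR's quasi-likelihood test, adjusted p = 8.22e-05). The other 6 pro-survival genes tested were not called, and the list median was 0.02. Bmf, a BH3-only gene that opposes BCL2 proteins, rose from 61.4, 48.3 and 51.4 CPM to 92.4, 93.2 and 107 CPM (0.86 ± 0.11, adjusted p = 0.000565), and the other 13 death genes were not called. Unstimulated control cells had means of 29.6 CPM for Bcl2 and 211 CPM for Bmf, so that Bcl2 in stimulated deficient cells, at a mean of 33.9 CPM, was at about its unstimulated control level while Bmf, at 97.5 CPM, was below it. Unstimulated deficient cells had means of 41.2 CPM for Bcl2 and 379 CPM for Bmf. The log2 difference before stimulation was 0.47 for Bcl2 and 0.84 for Bmf (edgeR's quasi-likelihood test, adjusted p = 0.115 and 0.00104). The longest annotated 3′ UTR of Bcl2, 5086 bases, holds 5 stem-loops by the search above, of which the longest with a UAU loop is shown for comparison with Nfkbiz.

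Bcl2 chr1:106538556-106538570 minus strand: aggagaUAUuuuccu

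Several receptors that tune B cell activation rose. Fcgr2b, the inhibitory receptor for IgG, was at 39.1, 41.5 and 47.0 CPM in control versus 93.2, 92.0 and 75.4 CPM in deficient libraries (1.03 ± 0.10, adjusted p = 4.63e-05). Of 24 inhibitory receptors and phosphatases 3 rose, the others being Pecam1 (0.62 ± 0.12, adjusted p = 0.0169) and Cd72 (0.34 ± 0.08, adjusted p = 0.0329), and Siglecg, an inhibitory sialic acid receptor gene, fell by 0.37 ± 0.09 (adjusted p = 0.0487). Slamf1, a self-binding receptor of the SLAM family, went from 11.1, 9.28 and 10.3 CPM to 28.2, 26.7 and 23.3 CPM (1.35 ± 0.16, adjusted p = 0.000242). Of 11 SLAM family genes it and Cd48 (0.45 ± 0.11, adjusted p = 0.0444) rose and 9 were not called. Fcgr2b (chromosome 1, 170958617 to 170976547) and Slamf1 (chromosome 1, 171767127 to 171801184) lie within 1 megabase of each other, on opposite strands. The calls of Pecam1 (lost without control library 1 or 2 or deficient library 2, adjusted p up to 0.0881), Cd72 (without control library 1 or 3 or deficient library 2 or 3, up to 0.136), Siglecg (without any 1 library other than deficient library 2, up to 0.202) and Cd48 (without any 1 library other than control library 1, up to 0.18) did not hold in every fit that left out 1 library. Cd72 overlaps Tesk1 over 1603 bases, so its reads may be shared.

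Fc receptor-like and other low-affinity Fc receptor genes split. Of 9 tested, Fcrl5, a marker of marginal zone and atypical B cells, stood at 12.4, 11.6 and 14.4 CPM in control versus 28.2, 46.7 and 26.4 CPM in deficient libraries, with deficient library 2 highest (1.40 ± 0.23, adjusted p = 0.00771; 0.0557 without control library 1). Fcrl1 rose by 0.50 ± 0.07 (adjusted p = 0.000784). Fcer2a, the gene for CD23 and a marker of follicular B cells, fell from 540, 494 and 568 CPM to 372, 386 and 462 CPM (-0.39 ± 0.09, adjusted p = 0.0262; up to 0.113 without control library 1 or 3 or deficient library 1 or 2). Beside these, the summed marginal zone marker level was higher in deficient cells as given above, and among its 7 measured genes Dtx1 had the smallest adjusted p (0.42 ± 0.11, adjusted p = 0.0691). The list was mixed: 5 genes had a difference above 0 and 2 below, and 0 were called. Cd9 was lower, at 74.8, 85.1 and 84.0 CPM in control versus 63.5, 74.3 and 63.5 CPM in deficient libraries. In unstimulated cells the summed marginal zone level overlapped, at 1775 to 2082 CPM in control versus 1577 to 2028 CPM in deficient libraries. The part of this sum in the changes of Fcrl5 and Fcer2a was not tested.

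The receptors for the B cell survival factors BAFF and APRIL moved in opposite directions. Tnfrsf13b, the gene for TACI, rose from 18.4, 20.9 and 18.3 CPM to 46.6, 35.2 and 37.3 CPM (1.05 ± 0.11, adjusted p = 5.34e-05). Tnfrsf13c, the gene for the BAFF receptor, fell from 535, 573 and 530 CPM to 383, 410 and 399 CPM (-0.46 ± 0.07, adjusted p = 0.00257). Neither pair of groups overlapped. Of 20 TNF receptor family genes the third call was Tnfrsf18, for the costimulatory receptor GITR, which fell by 1.08 ± 0.21 (adjusted p = 0.0127; up to 0.0622 without control library 3 or deficient library 3), and 17 were not called.

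Transcripts for adhesion and for cell positioning fell where they were called. Icam1, the ligand of the integrin LFA-1, was at 245, 245 and 245 CPM in control versus 123, 140 and 122 CPM in deficient libraries, which put deficient cells between control stimulated cells and unstimulated control cells (mean 77.4 CPM). It fell by 0.93 ± 0.08 on the log2 scale (edgeR's quasi-likelihood test, adjusted p = 8.62e-06). Of 20 adhesion genes Itgav, an integrin chain, also fell, by 0.51 ± 0.12 (adjusted p = 0.0467). Of 18 receptors for chemokines, oxysterols and lipids, 4 fell (22.2%, against 1.26% of all genes): Gpr132 by 0.66 ± 0.08 (adjusted p = 0.000561), Gpr183, the oxysterol receptor EBI2 that guides activated B cells to the outer follicle, by 0.64 ± 0.14 (adjusted p = 0.0359), P2ry10 by 0.52 ± 0.11 (adjusted p = 0.0229) and Ccr6 by 0.34 ± 0.08 (adjusted p = 0.0352). The list was chosen with earlier results of these data known, so its share of 22.2% does not test the list. Gpr183 stood at 312, 324 and 283 CPM in control versus 172, 202 and 215 CPM in deficient libraries. Of 17 RGS and G protein genes 3 fell, against 1.26% of all genes tested. Rgs1 fell by 0.71 ± 0.15 and Rgs2 by 0.67 ± 0.09, whose products dampen signalling by such receptors, and Gna13, a G protein subunit gene, by 0.38 ± 0.06. The calls of Itgav (up to 0.137) and Gpr183 (up to 0.132) ended without any 1 stimulated library, those of P2ry10 without any but control library 2 (up to 0.104) and Rgs1 without any but deficient library 3 (up to 0.143), and that of Ccr6 without control library 1 or 3 or deficient library 1 or 2 (up to 0.185). Gpr183 lies within Ubac2, and reads of the pair cannot be told apart without a stated strand setting.

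Cytokine genes and their receptors likewise fell where they were called. Of 28 cytokine receptor genes 6 fell (21.4%, against 1.26% of all genes tested), with a median of -0.16. This list too was chosen with earlier results of these data known. The clearest was Il21r, for a receptor that drives plasma cell formation, from 773, 737 and 726 CPM to 546, 570 and 554 CPM (-0.42 ± 0.06, adjusted p = 0.000611). Il2rg, the common gamma chain with which the IL-21 and IL-4 receptors signal, fell by 0.38 ± 0.06 (adjusted p = 0.00288) and Il4ra by 0.38 ± 0.07 (adjusted p = 0.0116). Stat6, the transcription factor downstream of IL-4, fell by 0.31 ± 0.06 (adjusted p = 0.00982) and was the 1 call among 23 STAT and SOCS genes. Il9r fell by 0.80, Il1r2, a decoy receptor, by 0.63 and Il17ra by 0.33. Of 33 cytokine genes 4 fell: Adm, for the peptide adrenomedullin, by 1.08 ± 0.15 (adjusted p = 0.00097), Ebi3, a subunit of IL-27 and IL-35, by 1.03 ± 0.23 (adjusted p = 0.0376), Ltb, for lymphotoxin beta, by 0.48 ± 0.09 (adjusted p = 0.00707) and Tgfb1 by 0.33 ± 0.08 (adjusted p = 0.0376).

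Of those calls, Il4ra was lost without control library 1 or deficient library 3 (adjusted p up to 0.0794) and Stat6 without control library 1 (adjusted p = 0.0609). Il9r was lost without control library 1 or 2 or deficient library 2 or 3 (up to 0.083), Il1r2 without any but deficient library 3 (up to 0.119) and Il17ra without control library 1 or deficient library 1 or 3 (up to 0.141). Ebi3 was lost without control library 2 or 3 or deficient library 1 (up to 0.155) and Tgfb1 without any 1 library (up to 0.16). Il2rg overlaps the annotated gene Gm20489 over 3878 bases and Stat6 overlaps Nab2 over 40 bases.

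In the TGF-beta pathway 21 of 24 genes had a difference below 0, with a median of -0.18, and the calls were Tgfb1 and Smad7, the inhibitory SMAD, which fell by 0.43 ± 0.07 (adjusted p = 0.00522). Among 14 ligands by which B cells address T cells, Cd274, the gene for PD-L1, rose from 324, 310 and 345 CPM to 416, 434 and 379 CPM (0.33 ± 0.08, adjusted p = 0.037; up to 0.155 without any 1 control library or deficient library 2) and 13 were not called. The median of these 14 was -0.26.

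Beside Zc3h12a, 2 genes for proteins that destabilize mRNA fell. Zfp36, the gene for tristetraprolin, which binds AU-rich elements, stood at 429, 404 and 416 CPM in control versus 278, 297 and 295 CPM in deficient libraries (-0.52 ± 0.07, adjusted p = 0.00049). Its paralog Zfp36l1 fell from 1703, 1629 and 1574 CPM to 976, 1023 and 1159 CPM (-0.64 ± 0.09, edgeR's quasi-likelihood test, adjusted p = 0.00097). With Zc3h12a, the targeted gene, these were the 3 calls among 25 genes, of which 19 had a difference below 0, with a median of -0.07.

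Of the lists of G1, MYC network and ribosome biogenesis genes, only the first held calls. In it 1 gene rose and 3 fell, against 0.751% and 1.26% of all genes tested. Of 25 G1 cyclins, CDKs and inhibitors, Ccnd2, the D-type cyclin induced by BCR signalling, fell from 1150, 1472 and 1378 CPM to 881, 828 and 770 CPM (-0.69 ± 0.15, adjusted p = 0.0349; up to 0.131 without any 1 library other than control library 1). The other calls in this list were 3: Cables1 fell by 0.90 ± 0.12 (adjusted p = 0.000551), Cdk5r1, the activator p35, fell from 150, 141 and 132 CPM to 80.9, 91.3 and 88.7 CPM (-0.70 ± 0.10, adjusted p = 0.00133), and Cdk5rap1, which modifies transfer RNAs, rose by 1.05 ± 0.22 (adjusted p = 0.0246; up to 0.114 without control library 1 or 2 or deficient library 1 or 3). Of 11 genes of the MYC network 0 were called by edgeR's quasi-likelihood test, with 3 at an unadjusted p under 0.05 and 0 called by DESeq2 or limma. Of 29 ribosome biogenesis genes 0 were called, 0 had an unadjusted p under 0.05 and DESeq2 and limma called 0; every difference lay between -0.11 and 0.05, the narrowest range of any list of more than 10 genes. Ncl, which encodes nucleolin, was at 5134, 5190 and 4831 CPM in control versus 4243, 4751 and 5076 CPM in deficient libraries, which overlapped.

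Mitotic genes were highest in 1 deficient library. All 24 had a difference above 0 and the median was 0.60, but 0 were called by edgeR's quasi-likelihood test, DESeq2 or limma and 0 had an unadjusted p under 0.05. Their sum was 1601 CPM in deficient library 1 and 498 and 628 CPM in the other deficient libraries, against 497 to 745 CPM in the control libraries. Aurka, a mitotic kinase gene, was at 20.6 CPM in deficient library 1 and 8.08 and 8.04 CPM in the other deficient libraries, against 6.47 to 7.78 CPM in the control libraries. The list median was 0.02 without the pair of libraries numbered deficient 1. Deficient library 1 also had the highest erythroid sum, 1239 CPM, and the list median was 0.40 in a fit that also held the erythroid level. DNA replication genes summed to 2163 CPM in deficient library 1 and 1610 to 1781 CPM in the other 5 libraries, with 29 of 32 above 0, a median of 0.15 (0.0054 without that pair) and 0 called by edgeR, DESeq2 or limma, 2 having an unadjusted p under 0.05.

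All 40 interferon-stimulated genes had a difference above 0, with a median of 0.25, and 0 were called by edgeR's quasi-likelihood test, with 2 at an unadjusted p under 0.05, 1 called by DESeq2 and 0 by limma. Their sum was 3964, 3767 and 6212 CPM in control versus 6351, 5250 and 4609 CPM in deficient libraries, so control library 3 stood with the deficient libraries. The same library and deficient library 1 had the highest myeloid sums, 224 and 211 CPM against 88.7 to 116 CPM in the others. Leaving out both libraries numbered deficient 1 gave a median of 0.10, and without control library 3 and deficient library 1 it was 0.39.

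Metabolic and innate lists held at most 2 calls each. Of 21 cholesterol synthesis genes 20 had a difference above 0, with a median of 0.20, and Dhcr7 rose by 0.46 ± 0.11 (adjusted p = 0.0409). Of 22 glycolysis genes, 18 amino acid transporters, 25 quiescence factors and 8 GIMAP GTPases 0 were called by edgeR's quasi-likelihood test, with 4, 3, 6 and 4 at an unadjusted p under 0.05. DESeq2 called 0, 2, 4 and 2 of these, and limma 0, 0, 2 and 0. Ctss and Lgmn, lysosomal proteases that process antigen, rose by 0.28 ± 0.06 (adjusted p = 0.0251) and 0.35 ± 0.06 (adjusted p = 0.00792) among 23 antigen presentation genes. Unc93b1, which carries nucleic acid-sensing Toll-like receptors to endosomes, rose by 0.26 ± 0.05 (adjusted p = 0.0149), and Ly86, the partner of RP105, by 0.27 ± 0.07 (adjusted p = 0.0486), among 21 Toll-like receptor genes and adaptors. Edem1, of endoplasmic reticulum degradation, fell by 0.25 ± 0.06 (adjusted p = 0.0309) and was the 1 call among 26 genes of the unfolded protein response. Sdc1, the plasma cell marker syndecan-1, fell by 0.68 ± 0.16 (adjusted p = 0.0486). Of these calls Ly86 (adjusted p up to 0.19), Edem1 (up to 0.143) and Sdc1 (up to 0.185) ended without any 1 library, Dhcr7 without any but deficient library 1 (up to 0.17), and Ctss (up to 0.135) and Unc93b1 (up to 0.0919) without control library 1 or 2 or deficient library 2.

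**Figure D3:**
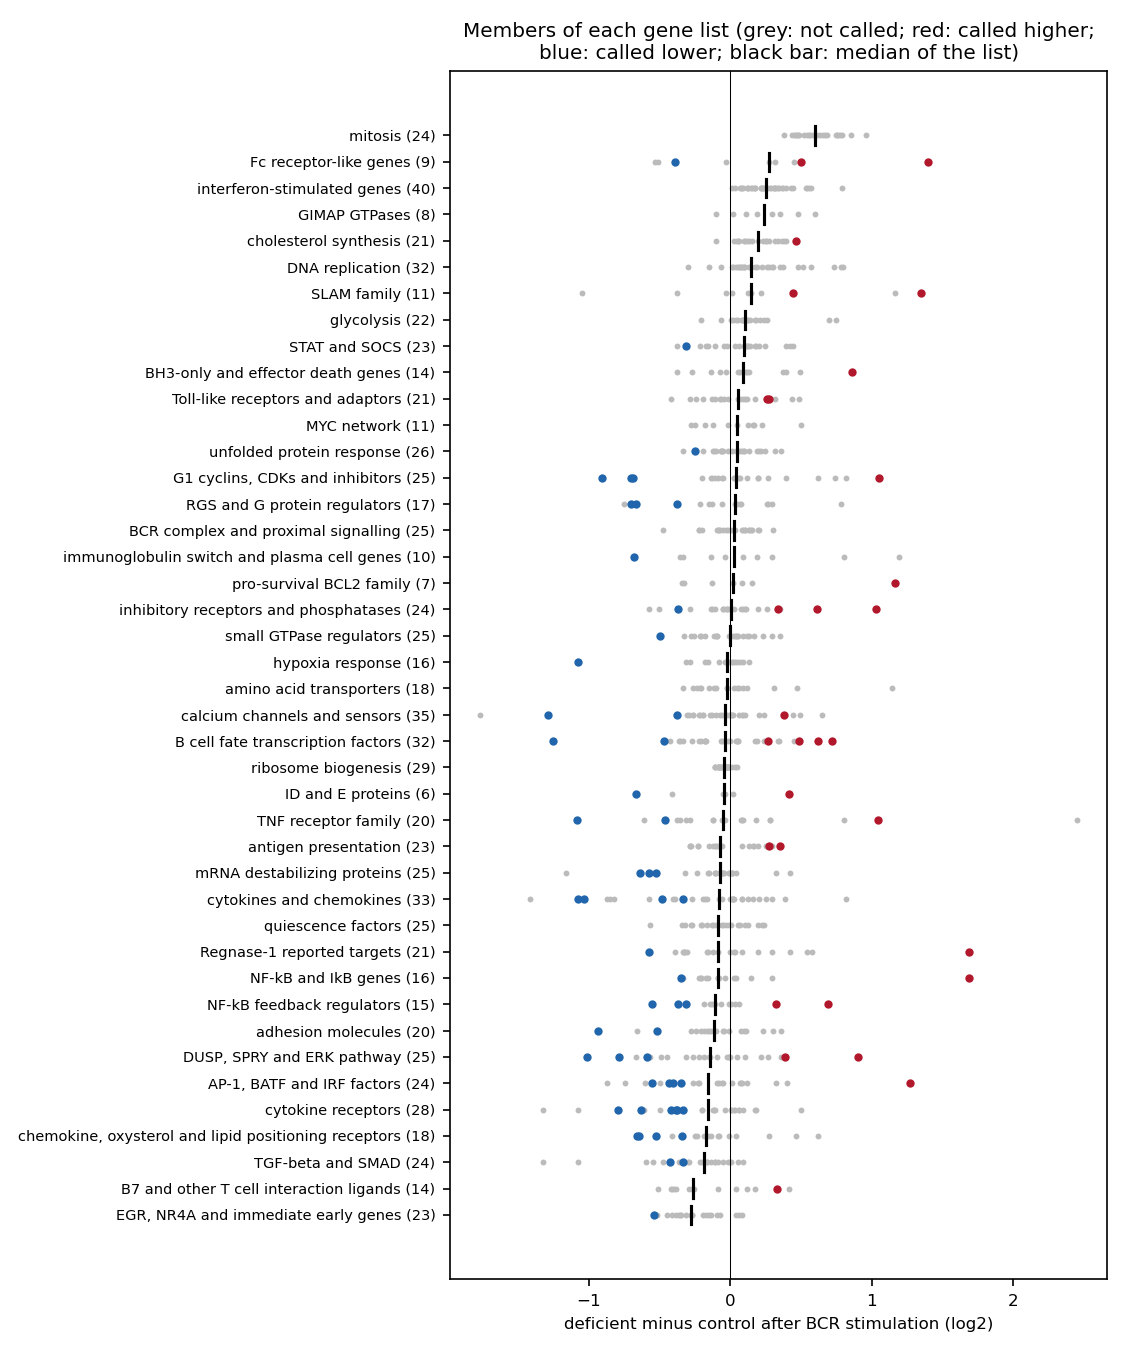
Log2 difference of deficient minus control after stimulation for the tested members of each gene list (number tested in brackets), with a black bar at the list median and called members in red (higher) or blue (lower). Calls in the cytokine receptor and positioning receptor lists are all below 0, while the 24 mitosis genes and 40 interferon-stimulated genes are all above 0 with none called.

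Calcium genes and several transcripts outside the lists completed the largest changes. Cacna1i, a T-type calcium channel gene, fell from 6.99, 6.36 and 9.91 CPM to 3.38, 3.36 and 2.71 CPM (-1.29 ± 0.19, adjusted p = 0.00284), after a level of 146 CPM in unstimulated control cells. Orai2, a store-operated channel gene, fell by 0.37 ± 0.08 (adjusted p = 0.0167) and Ppp3cc, a calcineurin catalytic subunit gene, rose by 0.38 ± 0.08 (adjusted p = 0.021), among 35 calcium genes. Krt222, a keratin-like gene, rose from 4.71, 5.66 and 6.30 CPM to 17.2, 13.9 and 16.4 CPM (1.51 ± 0.18, adjusted p = 0.000242). Slit3, a guidance ligand gene that lies below the level asked of named genes and is given because it passed the minimum fold, was at 0.195, 0.329 and 0.450 CPM in control versus 3.74, 3.33 and 3.79 CPM in deficient libraries (log2 difference 3.47 ± 0.34, adjusted p = 4.48e-05). Falls of 0.84 to 0.96 were found for Gad1, which makes GABA, Epha2, an ephrin receptor, Prr7 and B3gnt7, a glycosyltransferase gene with the highest level of these, 154, 143 and 143 CPM in control versus 81.6, 78.4 and 86.1 CPM in deficient libraries. AA467197 fell by 1.05 ± 0.14 (adjusted p = 0.000583). Kctd14, Nmral1, Bend5 and Endou rose by 0.97 to 1.32, and Lmo7 and Mrc1 fell by 0.99 and 1.27.

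Among these, the calls of Orai2 and Ppp3cc (lost without control library 2 or 3 or deficient library 2 or 3, adjusted p up to 0.0727 and 0.0993), Gad1 (without any but control library 2, up to 0.101), Prr7 (without control library 2 or 3 or deficient library 1 or 3, up to 0.0935), Kctd14 (without control library 1 or 2 or deficient library 1, up to 0.0827) and Nmral1 (without control library 1 or 2 or deficient library 1 or 2, up to 0.138) did not hold in every fit that left out 1 library. Nor did those of Endou (without control library 1 or 3 or deficient library 2 or 3, up to 0.155), Lmo7 (without control library 2 or 3 or deficient library 1 or 2, up to 0.117) and Mrc1 (without any but control library 2, up to 0.159). Mrc1 is a macrophage gene and the 1 call among 14 myeloid markers, of which 11 had a difference below 0, with a median of -0.58. Of the others C1qb, a complement gene of macrophages, was at 4.42, 3.54 and 6.94 CPM in control versus 2.61, 1.79 and 2.21 CPM in deficient libraries, which did not overlap, and was not called (adjusted p = 0.236, edgeR's quasi-likelihood test). The myeloid markers summed to 108 to 224 CPM in control and 88.7 to 211 CPM in deficient libraries, which overlapped, and their part in the fall of Mrc1 was not tested. Bend5 lies within Agbl4 on the same strand, Dusp1 overlaps Ergic1 over 640 bases, Irf5 overlaps Tnpo3 over 1045 bases, Junb overlaps Prdx2 over 351 bases and Plk3 overlaps Tctex1d4 over 84 bases. Adm, B3gnt7, Bcl2, Cables1, Ccnd2, Cd274, Dusp5, Ebi3, Fcgr2b, Gad1, Gna13, Icam1, Ikzf1, Il1r2, Il4ra, Itgav, Pou2f2, Ppp3cc, Rapgef6, Tnfaip8, Tnfrsf18, Zeb2, Zfp36 and Zfp36l1 have noncoding genes and Tnfrsf13b and Tnip1 pseudogenes annotated on the opposite strand, so reads of all these genes may be shared.

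Of the 273 called genes, 34 were also called between the genotypes in unstimulated cells in the same direction and 0 in the opposite direction. The difference had the same sign in both states for 254 of the 273. Same-numbered libraries of 1 genotype deviated together across the states (r of 0.459 to 0.853 over 9779 genes), so the differences before and after stimulation are not independent. The test of the difference itself, deficient minus control after stimulation minus the same before it, called 1 of 13574 genes (0.00737%), Mapk3. An unadjusted p under 0.05 was found for 510 genes, fewer than that threshold passes on average when no gene differs. This fit left out the pairing of same-numbered libraries, so its low count does not show that the other genes lacked a difference. Before stimulation Mapk3 was at 60.8, 61.0, 64.6 and 64.0 CPM in control versus 65.7, 64.4 and 74.8 CPM in deficient libraries, which overlapped. After stimulation control cells had 37.1% and deficient cells 63.7% of their unstimulated mean, and the genotype differences, 0.12 before and 0.91 after, differed by 0.78 ± 0.09 (edgeR's quasi-likelihood test, adjusted p = 0.00443).

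The labels do not say what the shared numbers stand for, and they are taken as a pairing from these correlations alone. With the library number within each genotype as a block the difference was called for 68 genes, 48 above and 20 below 0, with 4 residual degrees of freedom. Of these 68, 54 were among the 273. In that fit the genotype difference was larger after stimulation for Mapk3 (adjusted p = 0.000656), Batf (0.00285), Fcgr2b (0.00554), Bcl2 (0.0315), Fcrl1 (0.00285) and Zeb2 (0.00386). It was more negative for Icam1 (0.00114), Trib1 (0.00318), Tnfrsf13c (0.000656) and Gpr183 (0.00317). Nfkbiz did not pass for the difference with the block (adjusted p = 0.564), its genotype difference being 1.51 before and 1.69 after stimulation.

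**Figure D4:**
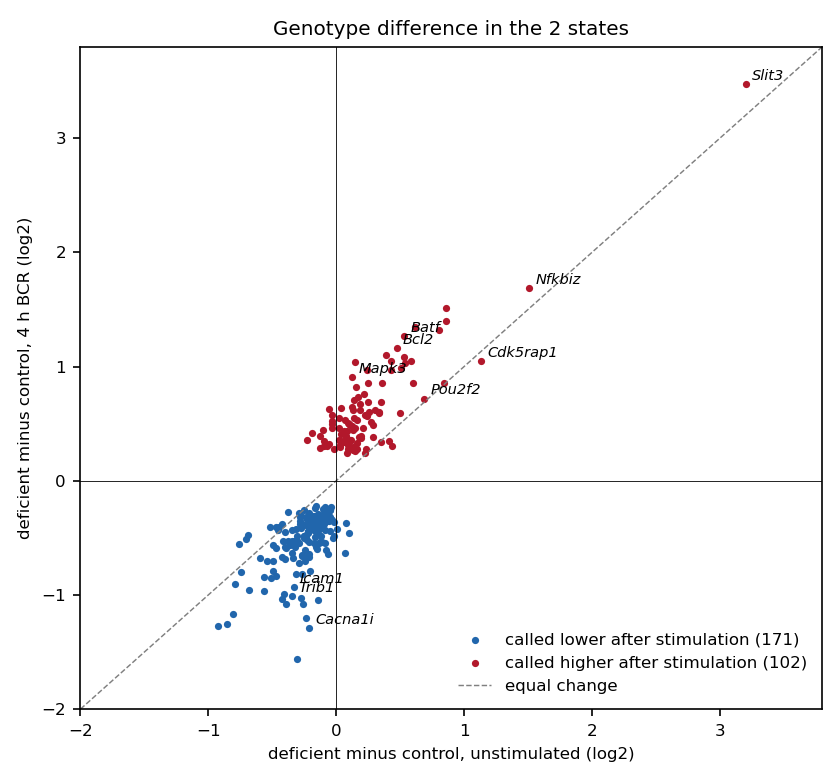
Log2 difference of deficient minus control in unstimulated cells (horizontal axis) and after 4 h of BCR stimulation (vertical axis) for the 273 genes called after stimulation. The dashed line marks equal differences: Nfkbiz, at 1.51 and 1.69, lies close to it, and Mapk3, at 0.12 and 0.91, lies far above it.

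Sequence features were compared between the called genes and all genes tested. Of called genes with an annotated 3′ UTR, 68 of 99 higher genes (68.7%) and 113 of 167 lower genes (67.7%) held a stem-loop by the search given above, against 8126 of 12663 genes tested (64.2%). Called genes had longer 3′ UTRs, with medians of 1561 and 1387 bases against 1183 bases. Per kilobase the higher genes held 0.992, the lower genes 1.16 and all genes 1.09 stem-loops, so the density in higher genes was below that in all genes. Loops of UAU were in 32.3% of higher, 29.3% of lower and 23.9% of all genes, or 0.216, 0.208 and 0.2 per kilobase. Batf and Slamf1 held 0 such stem-loops in 3′ UTRs of 335 and 1561 bases. A match describes letters that can pair and shows neither folding nor binding.

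Promoter windows of 300 bases from RefSeq (GRCm38.p6; 250 before and 50 after the start site) were found for 10545 of the genes tested (77.7%). The NF-kB motif, GGG followed by any 2 bases and TTTCC, searched like the others on both strands, was in 1.83% of windows of higher genes, 3.16% of lower genes and 1.72% of all genes. The AP-1 motif TGANTCA was in 9.17%, 6.84% and 5.37%, and the octamer ATGCAAAT, bound by OCT2, in 2.75%, 2.63% and 1.39%. For higher and lower genes these shares rest on few windows: 2 and 6 for NF-kB, 10 and 13 for AP-1, and 3 and 5 for the octamer. There were 109 windows for 75 higher genes and 190 for 140 lower genes, so a gene could count more than once. The AP-1 motif is its own reverse complement, and none of these motifs contains another. The windows of Tnfaip3, a gene that fell, and of Zeb2, a gene that rose, are shown because both carry AP-1 motifs while their transcripts moved in opposite directions. The 250 bases before the start site are given 5′ to 3′ on the strand of the gene, with matches in capitals (AP-1 and then NF-kB in Tnfaip3, AP-1 in both places in Zeb2).

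Tnfaip3 chr10:19015411-19015660 minus strand: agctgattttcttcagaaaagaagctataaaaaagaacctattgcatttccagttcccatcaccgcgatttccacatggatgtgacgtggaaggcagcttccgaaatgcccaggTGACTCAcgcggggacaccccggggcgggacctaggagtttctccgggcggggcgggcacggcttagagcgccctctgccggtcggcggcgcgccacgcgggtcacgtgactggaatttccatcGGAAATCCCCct

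Zeb2 chr2:45110278-45110527 minus strand: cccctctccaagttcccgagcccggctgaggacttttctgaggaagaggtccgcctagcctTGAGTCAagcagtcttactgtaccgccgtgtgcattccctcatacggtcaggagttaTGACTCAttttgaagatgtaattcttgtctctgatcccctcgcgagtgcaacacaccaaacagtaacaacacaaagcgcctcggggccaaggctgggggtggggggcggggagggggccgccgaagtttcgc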

How the data were processed

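Each library came with a deposited table of read counts by gene symbol; TopHat, HTSeq and mm10 are named, without versions, in the submitters' processing notes. A second table from the authors holds log2 values, and those notes also name DESeq2. The log2 transformation and the counting's annotation, strand setting and handling of multi-mapped reads are not given in the sources used here. RNA was taken with TRIzol and column-cleaned, per the labels' protocols. Counts were tested with edgeR 4.0.16 (R 4.3.3): filterByExpr by group (minimum count 10), TMM factors, a robust quasi-likelihood fit with 1 mean for each of the 4 groups (13 libraries), 9 residual degrees of freedom, and Benjamini-Hochberg adjustment over 13574 genes. Of 23337 symbols 18872 had counts, and 1 row with a missing cell was left out. Levels are TMM-normalized CPM and compare a gene between libraries, not genes with each other. Standard errors are the log2 difference divided by the root of F. The procedure was tested on simulated data.

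Named genes are Zc3h12a, the 15 largest rises and falls that were called, averaged 2 or more log2 CPM and showed no overlap of the groups, called members of each gene list (or up to 2 with the smallest p), and the largest called differences between states. The members and lists were chosen with earlier results of these data known. Some genes the rule takes are not reported here. Irf4, Dtx1, Slit3 and the genes in the closing section were chosen after their values were seen.

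Chi-square per gene between stimulated replicates was 11.2 to 31.0, so no 2 libraries agree within sampling noise. Deviations from group means correlated between states at r of 0.78, 0.459 and 0.584 for control and 0.853, 0.778 and 0.649 for deficient numbers 1 to 3, over 9779 genes. The numbers were taken to pair the states on this basis alone, without a comparison of differently numbered libraries. Floors cover counting error only. Stem-loops were read from GENCODE vM21 (GRCm38) in the longest annotated 3′ UTR of a gene, for 12663 genes (93.3%), and promoters from RefSeq. Symbols matched by name for 90.3% of genes, or 98.6% with RefSeq synonyms. Alternatives were other size factors, filters, terms, DESeq2 1.42.0, limma 3.58.1 on the deposited log2 values, and leaving libraries out.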

Additional observations from a re-analysis of the deposited data

Results flagged for a closer look

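The genotype difference of Mapk3 was larger after stimulation than before it, by 0.78 on the log2 scale. It was taken up here because the test of the difference between the states was passed. It was higher in 3 of 3 stimulated deficient libraries than in any stimulated control library, while the unstimulated means were 62.6 CPM in control and 68.3 CPM in deficient cells. Mapk3 overlaps no other annotated gene.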

How the results depend on the processing

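The count of genes called after stimulation was 511 with sex as a term and 539 in DESeq2, 12 against a minimum fold of 1.5, and 170 without control library 3 and deficient library 1. Leaving out 1 stimulated library gave 129 to 230. The replicate number as a block over the genotypes gave 274 calls, 231 of them shared, but same-numbered libraries of the genotypes deviated oppositely (r of -0.591, -0.347 and -0.43), so the numbers do not pair them. Of the 273 genes 112 were called in every fit that left out 1 stimulated library and 270 in DESeq2. For the difference between states, counts were 12 with upper-quartile factors, 10 with no filter, 68 with the library number within genotype as a block, 19 with sex and 15 with the erythroid level as a term, 0 against a minimum fold of 1.5, 13 without both libraries numbered deficient 1, 4 without control library 3 and deficient library 1, and 38 in DESeq2. Leaving out 1 library gave 1 to 10, and Mapk3 was called in all fits but that with the minimum fold. Over 113 named genes and 19 alternatives, 1733 values kept direction and call, 368 lost and 46 gained the call, and 0 reversed. The causes were not tested. Calls were less frequent at low levels, 0.211% of genes under 2 log2 CPM.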

Other observations

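Outside the lists, called genes included signalling components that moved in both directions, all chosen after their values were seen. Each of the genes in this section was called in every fit that left out 1 stimulated library. Samsn1, an adaptor that restrains BCR signalling, fell from 396 ± 6.75 to 247 ± 9.37 CPM (SD, n = 3 a group), a log2 difference of -0.68 ± 0.06 (edgeR's quasi-likelihood test, adjusted p = 2.22e-05). The adaptor gene Lax1 fell by 0.43 and the kinase gene Sik1 by 0.48. Sh3bp5, whose product binds and inhibits the kinase BTK, rose from 400.0 ± 10.3 to 602 ± 13.7 CPM (0.59 ± 0.05, adjusted p = 2.85e-05). Ksr1, a scaffold of the RAF to ERK cascade, rose by 0.55 ± 0.08 (adjusted p = 0.000784), the GTPase gene Rac2 by 0.51 and Gnaq, a G protein subunit gene, by 0.49.

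Other called genes encode surface and secreted proteins or regulators of transcription. Cd55, a complement regulator, fell by 0.65, Sema4d by 0.39, the cytokine gene Clcf1 by 0.66 and Lfng, which modifies Notch receptors, by 0.79, from 191 ± 8.95 to 110 ± 7.92 CPM (adjusted p = 0.00257). Lmo2 rose by 0.86, from 76.9 ± 3.85 to 140 ± 12.8 CPM (adjusted p = 0.00152), Bcl11a, a B lineage factor, by 0.60, Mllt6 by 0.57 and the corepressor genes Tbl1x and Bcor by 0.47 and 0.35. The chromatin gene Dot1l fell by 0.38.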
